A study of Mus musculus with 16 samples.

Results

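The 10 genes described here were picked because a transcript deposited for them appeared to be switched on or off between the genotypes of this mouse colon study: *Tra2a*, *Dus2*, *Alg9*, *Cyb5r1*, *Tesc*, *Brpf1*, *Mier1*, *Ncoa5*, *Cep250* and *Fam171a1*. They were chosen from the measured values themselves, as 10 of the 22396 gene symbols in the deposited tables, and they have 11 of the 28988 listed transcripts. *Mier1* has 2 listed transcripts and each of the other 9 genes has 1. The level of each transcript is given in TPM, a measure of its share of all transcripts of a library, corrected for transcript length. All values come from the listed principal isoforms, and reads that were assigned to other isoforms of a gene are not in them.

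The libraries were made from EpCAM+ cells sorted from the distal colonic mucosa of 16 adult mice, 1 library per mouse. EpCAM is a surface protein of epithelial cells, and dextran sulfate sodium (DSS) in drinking water injures the colonic epithelium. All 16 mice carried the floxed allele (Tnfr2-f/f), and the mice labelled Vil1::Cre;Tnfr2-f/f also carried a Cre recombinase driven by the promoter of villin, which is active in intestinal epithelium, so that other cells keep the intact gene. The DSS groups held 3 controls (Tnfr2-f/f) and 4 mice labelled knockout, all female, given 3% DSS for 6 days. The water groups held 4 controls and 5 mice labelled knockout, of both sexes, and every mouse was dissected at day 12 by its label. Each treatment has its own table, scaled apart from the other, so genotypes were compared only within a treatment.

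*Tnfrsf1b*, the targeted gene that encodes TNFR2, did not separate the genotypes. It had 16.5 ± 4.95 TPM (SD, n = 3) in the DSS controls and 18.4 ± 6.02 (n = 4) in the DSS mice labelled knockout, with an exact two-sided permutation p of 0.686. In the water mice it had 13.9 ± 2.06 TPM (n = 4) in controls and 11.8 ± 2.30 (n = 5) in mice labelled knockout (exact permutation p = 0.159). The loxP sites of the floxed allele flank exon 2, and a TPM is a value of the whole transcript and not of that exon, so it does not check the labels. The loss of TNFR2 in EpCAM+ cells of this line was examined in the study by flow cytometry and qPCR, which are not analysed here. "Control" and "knockout" stand for the labels throughout. The sorted cells had the epithelial markers, 12 of 12 with a mean of at least 1 TPM in every group, at a summed 5170 to 8137 TPM per mouse. Leukocyte markers summed to 89.9 to 1034 TPM in the DSS mice, and to 1795 to 9917 TPM in the water controls and 4646 to 15004 TPM in the water mice labelled knockout. Their part in the results on the 10 genes was not tested, and in such libraries fewer cells of a type cannot be told apart from less RNA per cell. Cage splits each treatment too, and in the water mice cage and sex are the same split.

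Most genes are transcribed into several isoforms, which arise through other start sites, skipped exons, other splice sites or retained introns. Some isoforms carry an early stop codon and are removed by nonsense-mediated decay, and transcripts of several splicing factors, Tra2 proteins among them, are known to take up an exon of this kind that limits their own protein. kallisto, the tool that made these tables, assigns reads by short words shared with the annotated isoforms. Isoforms that share nearly all of their words are told apart only by the few reads that reach a differing exon or junction.

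In GENCODE M21 (GRCm38), the 10 genes have 83 annotated transcripts, of which 72 are not listed in the deposited tables. The pattern transcript of a gene is here the listed transcript with the larger difference between genotypes. The annotated isoform that shares most 31-base words with it carried the label nonsense-mediated decay for 4 genes (*Dus2*, *Alg9*, *Cyb5r1* and *Tesc*), retained intron for *Tra2a* and protein coding for the other 5. These isoforms held between 86.4% (*Alg9*) and 99.3% (*Mier1*) of the words of the listed transcript. For *Mier1* the nearest isoform was its other listed transcript, and for the other 9 genes it was not listed.

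Coding stretches by which 5 of the listed transcripts differ from another isoform of their gene are given here, to show how short such differences can be. They are from GENCODE M21, with coordinates on GRCm38, and are written 5′ to 3′ on the strand of the gene. In the first 3 lines, capitals mark bases of the listed transcript that the other isoform skips, with 15 flanking bases in lower case. In the last 3 lines, capitals mark the first 15 bases after an exon junction where the other isoform holds additional bases.
Dus2, exon 5 of 16 (44 bases, chr8:106031698-106031741, + strand): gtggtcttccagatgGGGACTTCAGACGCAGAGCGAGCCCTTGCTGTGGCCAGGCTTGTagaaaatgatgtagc
Alg9, exon 4 of 15 (71 bases, chr9:50783258-50783328, + strand): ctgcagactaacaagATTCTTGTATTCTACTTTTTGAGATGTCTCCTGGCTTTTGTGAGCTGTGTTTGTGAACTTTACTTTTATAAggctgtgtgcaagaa
Tra2a, end of exon 6 of 8 (6 bases, chr6:49245476-49245481, − strand): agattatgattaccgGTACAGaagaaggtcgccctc
Tra2a, junction of exons 1 and 2 (chr6:49252515-49263838, − strand): aacttcgagggcagaGAGTCTCGCTCTCAG
Tesc, junction of exons 5 and 6 (chr5:118056438-118056537, + strand): gaagagtatagaaatGTGGTGGAGGAGCTG
Cyb5r1, junction of exons 5 and 6 (chr1:134407703-134408404, + strand): gttatgctgggaaagGGAATTTTAATATTC

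In *Dus2* and *Alg9* the exon in capitals is skipped by an isoform annotated as a decay target, and its length, 44 or 71 bases, is no multiple of 3. In *Tesc* the decay isoform ends exon 5 at a site 5 bases further on, and in *Cyb5r1* it holds 587 more bases at this junction. The decay isoform of *Tra2a* takes up an exon of 306 bases between exons 1 and 2, while another coding isoform of this gene lacks the 6 bases at the end of exon 6. Neither is the retained-intron isoform that is nearest to the listed *Tra2a* transcript. The 31-base words over the stretches of *Tra2a* and *Cyb5r1* are not unique to the listed transcripts, since other annotated transcripts hold them too. In *Cep250* and *Fam171a1* all words unique to the listed transcript lay before its coding sequence, so no stretch is shown for them.

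The genotype patterns fell in one treatment for each gene: in DSS for *Tra2a*, *Alg9*, *Cyb5r1*, *Ncoa5*, *Cep250* and *Fam171a1*, and in water for *Dus2*, *Tesc*, *Brpf1* and *Mier1*. Which treatment led to the choice of a gene is not stated, so the one with the larger difference is taken here as the choosing treatment. Its values are described without a test. An on-off transcript was defined as one under 1 TPM in every mouse of one genotype and at 2 TPM or more in every mouse of the other. Only 2 of the 10 genes met this with a single listed transcript, *Tra2a* in DSS and *Dus2* in water. The sum of the 2 listed *Mier1* transcripts also met these levels in water, as described below. By single transcripts the name on-off therefore holds for *Tra2a* and *Dus2*, and the other 8 genes are better called genes with a gap, or a near gap, between genotypes. In the treatment with the pattern, genotypes did not overlap for the pattern transcript of 9 of the 10 genes, and they overlapped for that of *Mier1*.

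**Figure D1:**
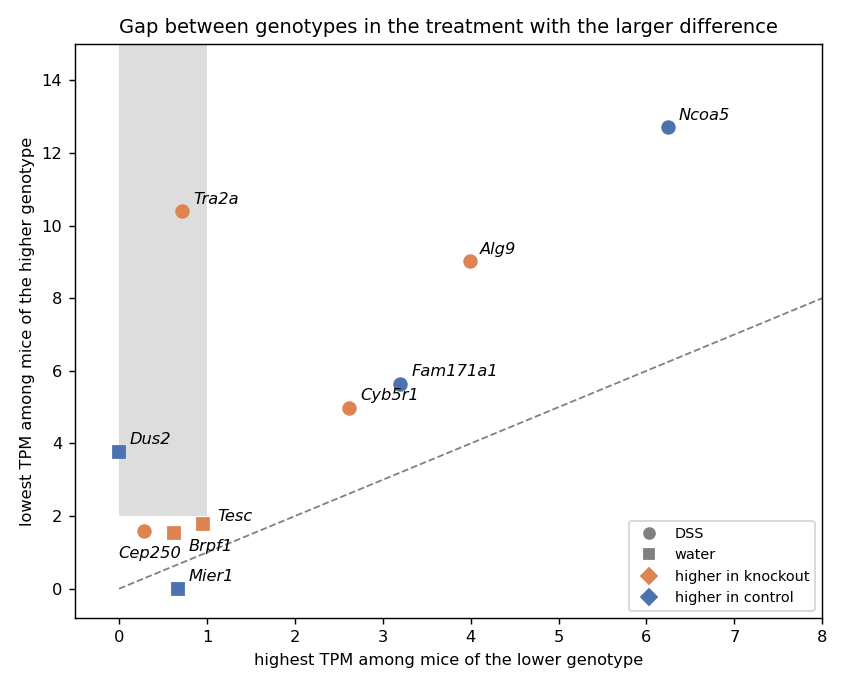
Lowest TPM of a mouse of the higher genotype (vertical axis) against the highest TPM of a mouse of the lower genotype (horizontal axis), for the pattern transcript of each gene in the treatment with the larger difference. The shaded area is the on-off definition, which holds *Tra2a* and *Dus2*; points above the dashed line of equal values have genotypes that do not overlap, and only *Mier1* lies below it.

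As background, all listed transcripts with a mean of at least 1 TPM were counted by the same rules, 12547 in DSS and 12661 in water. On-off transcripts present only in the mice labelled knockout were 6 in DSS (0.0478%) and 2 in water (0.0158%), and those present only in controls were 2 in DSS (0.0159%) and 2 in water (0.0158%). Genotypes did not overlap, with higher values in knockout, for 2.19% of transcripts in DSS and 0.727% in water. The shares with lower values in knockout were 1.81% and 0.814%. Among the 10 genes, the gap was toward higher values in knockout for 4 of the 6 DSS patterns and 2 of the 4 water patterns. limma at an adjusted p under 0.05 called 1 transcript as higher in DSS and 1 as lower (0.00797% each), and in water 0 as higher (0%) and 2 as lower (0.0158%), where 630 had an unadjusted p under 0.05 in either direction. *Tra2a* in DSS and *Dus2* in water were among these 4 transcripts, and the other 8 genes were not. With cage as a covariate limma called 0 transcripts in DSS (540 with an unadjusted p under 0.05). The *Tra2a* call was kept in 5 of 15 alternatives of the transcript fit. Since these contrasts chose the genes, nothing is read from their counts against the background or from these calls.

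*Tra2a* (ENSMUSG00000029817, chr6:49243924-49264033, − strand) encodes a splicing activator that binds exonic enhancers. In the DSS controls its listed transcript had 0.000504, 0.000267 and 0.718 TPM, and in the DSS mice labelled knockout 12.2, 10.4, 12.1 and 14.4 TPM. The lowest mouse labelled knockout was thus far above the highest control, and the group means were 0.240 ± 0.414 (SD, n = 3) and 12.3 ± 1.65 (n = 4). The difference on the log2(TPM + 1) scale was 3.46 with a standard error of 0.26.

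In the water mice, which are other animals, the same *Tra2a* transcript had 16.1, 9.84, 30.8 and 0.252 TPM in controls and 31.1, 8.87, 22.8, 3.68 and 21.6 TPM in mice labelled knockout. Both genotypes spanned low and high values and overlapped widely. One water control, at 0.252 TPM, stood far below the other 3. The difference was 0.71 with a standard error of 0.94 (95% interval −1.43 to 2.84), and an exact two-sided permutation test over the 9 mice gave p = 0.556. Without that control the difference changed sign, to −0.25.

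*Dus2* (ENSMUSG00000031901, chr8:105991337-106053840, + strand) encodes an enzyme that reduces uridine to dihydrouridine in tRNA. Its pattern lay in water, where controls had 3.77, 4.35, 4.23 and 3.81 TPM and the 5 mice labelled knockout had at most 2.00e-06 TPM. Of the 10 pattern transcripts, only that of *Dus2* had every mouse of the lower genotype under 0.01 TPM, beside narrow controls (4.04 ± 0.291, SD, n = 4). The difference was −2.33 with a standard error of 0.18 on the log2(TPM + 1) scale, which understates low levels.

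After DSS the *Dus2* transcript was present in all 7 mice. Controls had 3.20, 2.81 and 3.87 TPM, and mice labelled knockout had 3.29, 2.18, 1.89 and 3.52 TPM. The genotypes overlapped, with a difference of −0.22 (95% interval −0.80 to 0.35; exact permutation p = 0.4). The interval for the DSS mice thus reached down to −0.80, beside −2.33 in the water mice.

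**Figure D2:**
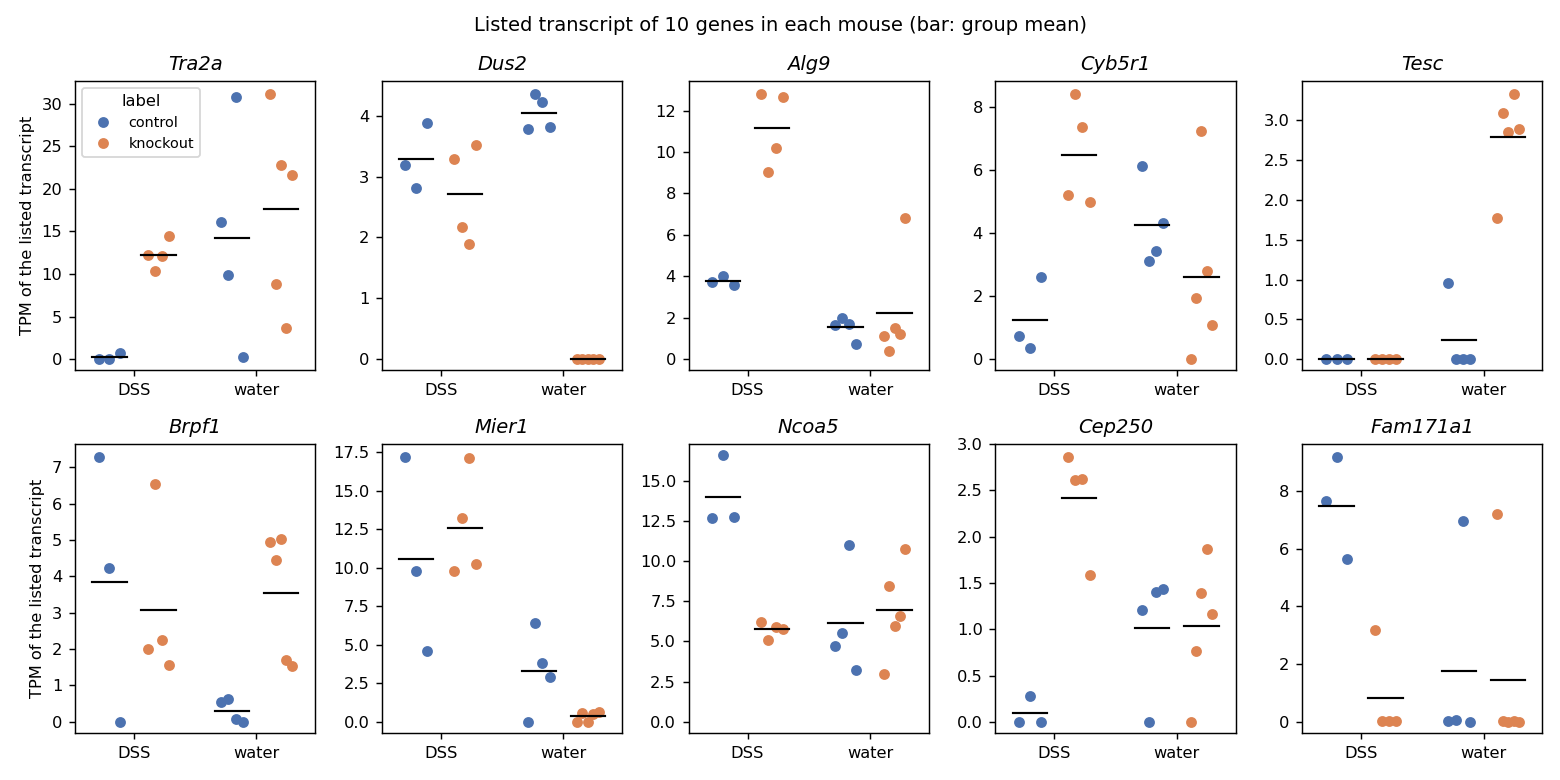
TPM of the pattern transcript of each gene (vertical axes, linear, a scale for each gene) in each mouse after DSS or water, with controls in blue, mice labelled knockout in orange and black bars for group means. *Tra2a* is near 0 in the 3 DSS controls and *Dus2* is near 0 in the 5 water mice labelled knockout, while both genotypes hold high values of these transcripts in the other treatment.

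Among the enzymes of the endoplasmic reticulum membrane, *Alg9* (ENSMUSG00000032059, chr9:50775019-50843542, + strand) adds mannose to the lipid-linked precursor of N-glycans. In DSS, controls had 3.71, 3.99 and 3.56 TPM and mice labelled knockout 12.8, 9.03, 10.2 and 12.6 TPM. The transcript was therefore present in every DSS mouse, 2.98-fold higher by the means (3.75 ± 0.217 and 11.2 ± 1.86), and not off in any. In water, controls had 1.64, 2.01, 1.71 and 0.748 TPM and mice labelled knockout 1.13, 0.402, 1.51, 1.19 and 6.80 TPM. Only 1 water mouse stood above the rest, and the difference was 0.09 (95% interval −0.96 to 1.15; exact permutation p = 0.952).

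*Cyb5r1* (ENSMUSG00000026456, chr1:134405559-134411740, + strand) encodes a cytochrome b5 reductase that uses NADH. Its DSS values were 0.729, 0.354 and 2.62 TPM in controls and 5.20, 8.42, 7.36 and 4.99 TPM in mice labelled knockout. One control, at 2.62 TPM, was well above the other 2, and the means differed 5.26-fold. In water the order of the means was the opposite, with 6.15, 3.11, 3.42 and 4.34 TPM in controls and 0, 1.94, 7.23, 2.79 and 1.07 TPM in mice labelled knockout. The genotypes overlapped there, through the mouse at 7.23 TPM, and the difference was −0.84 (95% interval −2.06 to 0.37; exact permutation p = 0.19).

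*Tesc* (ENSMUSG00000029359, chr5:118027743-118061878, + strand) encodes tescalcin, a calcium-binding protein that interacts with a sodium-proton exchanger. In water, 1 control had 0.956 TPM and the other 3 were listed at 0, and the mice labelled knockout had 1.77, 3.09, 2.86, 3.33 and 2.90 TPM. The gap was narrow, from 0.956 to 1.77 TPM. After DSS the transcript was listed at 0 in all 7 mice of both genotypes, so no comparison could be made there. At this level, the authors' mean over all water mice, those listed at 0 included, was equivalent to 2.65 estimated reads (geometric).

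*Brpf1* (ENSMUSG00000001632, chr6:113307137-113324860, + strand) encodes a scaffold of histone acetyltransferase complexes that contain MOZ. Water controls had 0.546, 0.623, 0.0698 and 0 TPM, and water mice labelled knockout had 4.96, 4.45, 5.03, 1.71 and 1.55 TPM. The 5 mice labelled knockout fell into a higher and a lower set, and both lay above all controls. In DSS 2 controls were high, at 7.28 and 4.23 TPM, and the third was at 8.76e-07 TPM, while mice labelled knockout had 1.99, 6.53, 2.24 and 1.57 TPM. The DSS difference was 0.07 (95% interval −1.69 to 1.84; exact permutation p = 0.914), and leaving out the control near 0 turned it to −0.83.

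*Mier1* (ENSMUSG00000028522, chr4:103114390-103165754, + strand) encodes a corepressor that binds histone deacetylases, and it was the only one of the 10 genes with a pair of listed transcripts, which share 99.3% of the words of ENSMUST00000030247. In water this transcript had 0.0017, 6.44, 3.82 and 2.92 TPM in controls and at most 0.667 TPM in the mice labelled knockout. The first control overlapped the mice labelled knockout. The second transcript, ENSMUST00000106858, had 2.93, 2.72, 0 and 0 TPM in the same controls and was listed at 0 in all 5 mice labelled knockout. The control that lacked the first transcript therefore had the second.

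Summed over both transcripts, *Mier1* had 4.71 ± 2.99 TPM in the water controls (lowest 2.92, n = 4) and 0.346 ± 0.323 TPM in the water mice labelled knockout (highest 0.667, n = 5), and the genotypes no longer overlapped. The sum thus met the levels of the on-off definition, which was counted here for single transcripts only. Its limma difference was −2.0 with a standard error of 0.33, and the limma adjusted p over all gene sums was 0.637. In DSS, ENSMUST00000030247 had 17.2, 9.83 and 4.62 TPM in controls and 9.83, 13.2, 17.1 and 10.3 TPM in mice labelled knockout. There the genotypes overlapped and the difference was 0.36 (95% interval −0.57 to 1.30; exact permutation p = 0.514). The second transcript was at 3.00 TPM or less in every DSS mouse, and at 0 or near it in 1 mouse of each genotype.

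*Ncoa5* (ENSMUSG00000039804, chr2:165000357-165034867, − strand) encodes a coregulator of nuclear receptors. In DSS, controls had 12.7, 16.6 and 12.7 TPM and mice labelled knockout had 6.24, 5.06, 5.93 and 5.76 TPM. Every mouse had the transcript, and the controls were 2.44-fold higher by the means (14.0 ± 2.26 and 5.75 ± 0.498). In water the values were 4.74, 5.55, 11.0 and 3.23 TPM in controls and 2.94, 8.46, 5.93, 6.60 and 10.8 TPM in mice labelled knockout. These ranges were nearly the same, with a difference of 0.17 (95% interval −0.68 to 1.03; exact permutation p = 0.683).

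*Cep250* (ENSMUSG00000038241, chr2:155956458-155998900, + strand) encodes a protein of the linker that holds centrosomes together. In DSS, 1 control had 0.281 TPM and the other 2 were under 0.01 TPM, and mice labelled knockout had 2.86, 2.62, 2.62 and 1.59 TPM. The separation was complete, though at low levels. In water, controls had 1.21, 0.00234, 1.40 and 1.43 TPM and mice labelled knockout had 0.000109, 0.764, 1.39, 1.87 and 1.17 TPM. One mouse of each genotype was thus near 0 in water, and the difference was 0.02 (95% interval −0.89 to 0.93; exact permutation p = 0.921).

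*Fam171a1* (ENSMUSG00000050530, chr2:3114224-3227806, + strand) encodes a transmembrane protein. DSS controls had 7.64, 9.18 and 5.65 TPM, and DSS mice labelled knockout had 3.20, 0.0441, 0.0277 and 0.0347 TPM. In water, 1 control had 6.96 TPM and 1 mouse labelled knockout had 7.21 TPM, and the other 7 mice were under 0.05 TPM. Over both tables, 6 of 16 mice were at 2 TPM or more and the other 10 were under 0.05 TPM, with none between, although the tables were scaled apart. The water difference was −0.15 (95% interval −2.10 to 1.80; exact permutation p = 0.905).

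In the other treatment, which by definition has the smaller difference, no genotype difference passed a test or separated the genotypes. This way of setting the other treatment makes a recurrence less likely to be seen. Of the 9 genes that could be tested there, genotypes overlapped in 9. None passed the exact permutation test of log2(TPM + 1) at 0.05 (lowest p = 0.19, for *Cyb5r1*). None passed limma over all transcripts, also by its unadjusted p (0 of 9). Over all transcripts tested in both treatments, genotypes did not overlap for 3.98% in DSS and 1.57% in water. The limma unadjusted p was under 0.05 for 3.27% and 4.98% of all transcripts tested. Counts of 0 of 9 are near these shares, so nothing is read from them. The smallest one-sided p that 3 mice against 4 can give is 0.0286, and that of 4 against 5 is 0.00794. The two-sided test used here doubles the smaller one-sided p. With 3 against 4 it could therefore not fall under 0.05, so the tests of *Dus2*, *Mier1* and *Brpf1* in DSS could not pass. The direction was the same for 6 of the 9 (*Tra2a*, *Dus2*, *Alg9*, *Cep250*, *Brpf1* and *Fam171a1*) and the opposite for *Ncoa5*, *Cyb5r1* and *Mier1*. For 7 of the 9 this direction was not stable, since it turned when a single mouse was left out, and it did not turn for *Dus2* and *Cyb5r1*. A p above the threshold does not show that the genotypes are alike in the other treatment, and whether genotype acts differently in the treatments was not tested because the tables were scaled apart.

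**Figure D3:**
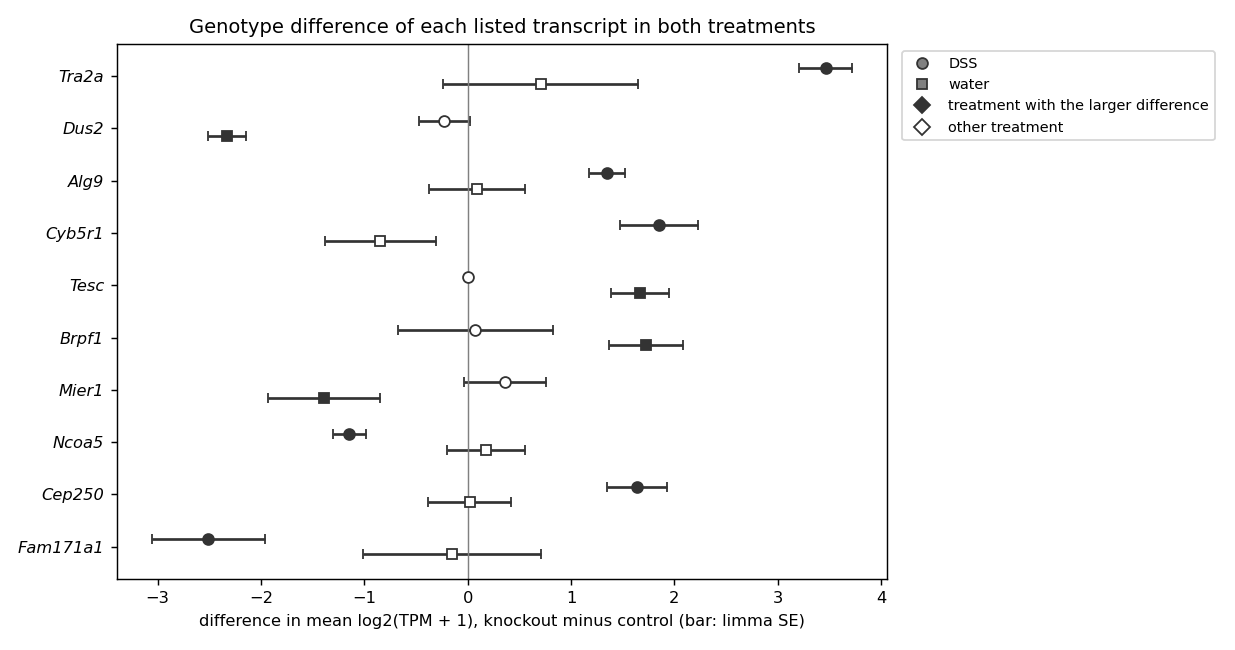
Difference in mean log2(TPM + 1), knockout minus control, of the pattern transcript of each gene after DSS (circles) and water (squares), with bars for the limma standard error. Filled symbols mark the treatment with the larger difference, which is taken as the one that chose the gene. The open symbols mark the other treatment and lie between −0.84 and 0.71, and *Tesc*, listed at 0 in all DSS mice, has no error bar there.

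The same count was made over all transcripts. Of 11423 transcripts tested in both treatments, 455 (3.98%) had genotypes that did not overlap in DSS and 179 (1.57%) in water. The lists shared 6 transcripts, of which 4 had opposite directions. These 6 were 1.32% of the DSS list, beside 1.57% of all transcripts in the water list. They were 3.35% of the water list, beside 3.98% of all transcripts in the DSS list, so both shares were near the background. No transcript met the on-off definition in both treatments, out of 8 in DSS and 4 in water.

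Presence in some mice and near absence in others was common inside the groups. In DSS, 2943 of 12547 transcripts (23.5%) had at least 1 mouse under 1 TPM and at least 1 at 2 TPM or more within a single genotype, and in water it was 4183 of 12661 (33.0%). In the treatment with the smaller difference, 5 of the 9 genes tested were mixed in this way: *Brpf1* in DSS, and *Tra2a*, *Alg9*, *Cyb5r1* and *Fam171a1* in water. Mice that shared label, treatment and cage could differ as widely. In the male water cage, *Fam171a1* was at 6.96 and 0.0145 TPM in the 2 controls and at 7.21 and 0.0182 TPM in the 2 mice labelled knockout.

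Within cages, the values went as over all mice. For the 9 genes whose genotypes did not overlap this had to follow, and 1 mouse of each genotype cannot overlap. In the DSS cage with 1 mouse of each genotype and in the cage with 2 controls and 3 mice labelled knockout, the direction was the same for 6 of 6 genes, without overlap. In the water cages it was the same for 4 of 4 genes, and only *Mier1* overlapped, in the cage with 2 mice of each genotype. These mice are those that chose the genes, so the within-cage values are no separate support.

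The choice did not directly use how much of a listed transcript is its own. Over all transcripts, few unique words went with values near 0 in some mice and not in others, as given below. The genes were chosen for such values, so the shares of the 10 genes are a description only. Of the 31-base words of *Tra2a* and of the *Mier1* transcript ENSMUST00000030247, none was absent from all other annotated transcripts. The share was 0.223% for *Cyb5r1*, 0.365% for *Cep250*, 0.643% for *Brpf1*, 0.753% for *Fam171a1*, 0.985% for *Alg9*, 1.30% for *Ncoa5*, 3.99% for *Dus2* and 5.79% for *Tesc*. The median of the 10 was 0.698%. Over all transcripts tested the median was 11.2% in DSS and 10.3% in water, and all 10 genes were under it. Their genes also had more annotated transcripts, a median of 8.5, than the 5 of all transcripts tested.

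The unique words lay in different places. In *Dus2* the 73 unique words all touched the coding sequence, around the exon of 44 bases printed above, and in *Alg9* the 28 unique words crossed the junction after the exon of 71 bases. In *Tesc* 28 of 58 touched the coding sequence. In *Cep250* and *Fam171a1* all of them, 29 and 31, lay before the coding sequence, and in *Cyb5r1* all 4 lay after it. In *Ncoa5* 38 of 41 lay before the coding sequence. No count of reads over these words can be read from TPM.

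**Figure D4:**
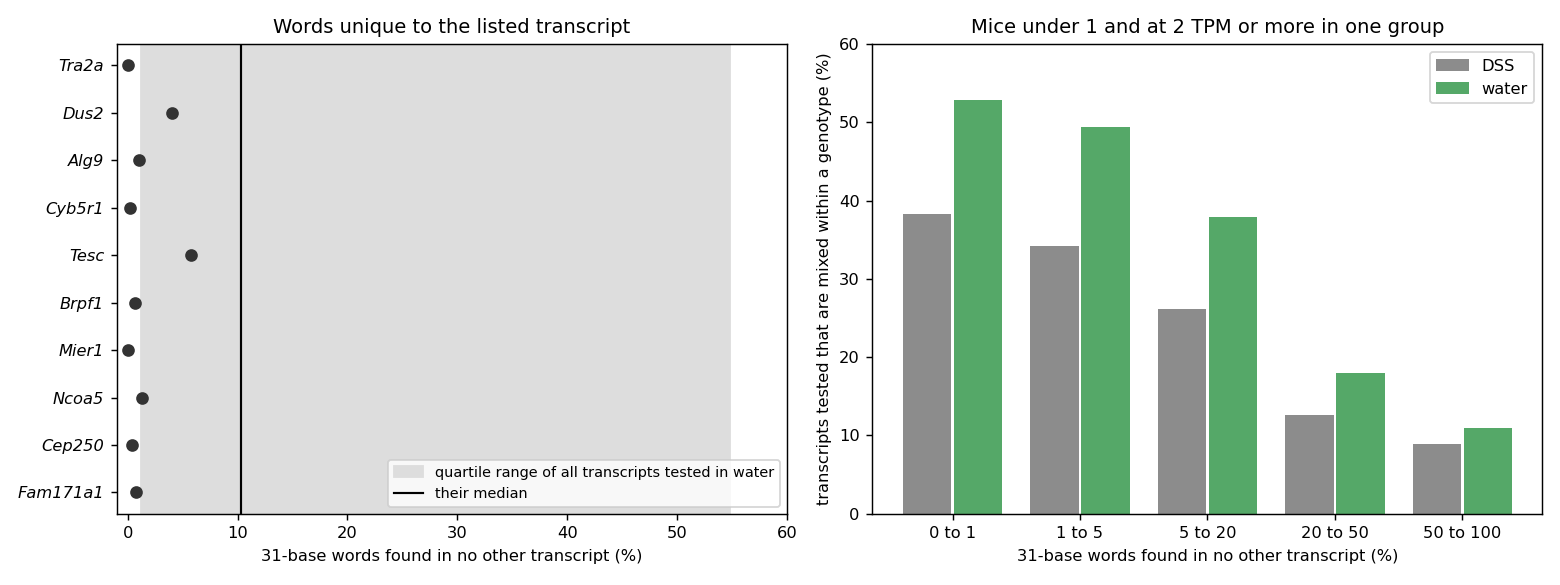
Left, share of 31-base words found in no other annotated transcript (horizontal axis, percent) for the pattern transcript of each gene, with the median (line) and quartiles (edges of the shading) of the 12661 transcripts tested in water. Right, percent of transcripts tested that had mice both under 1 TPM and at 2 TPM or more within a genotype (bars), by the same share; it was 38.3% in DSS and 52.8% in water at up to 1% unique words, and 8.97% and 10.9% above 50%.

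Among all transcripts, mixing within a genotype went with few unique words. In DSS the share of mixed transcripts was 38.3% where at most 1% of words were unique (2785 transcripts) and 8.97% where over 50% were (3466 transcripts). In water these shares were 52.8% and 10.9%. Among transcripts with a mean from 2 to under 10 TPM, a range set after the values were seen, they were 44.9% and 6.48% in DSS and 58.3% and 5.87% in water. All on-off transcripts, 8 in DSS and 4 in water, had at most 20% unique words, a range that holds 56.8% of the transcripts tested in DSS and 57.5% in water. Whether few unique words bring about the gaps in the 10 genes was not tested.

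The precision of the estimates was low for these transcripts. The authors' tables give, over the mice of a table, a variance of the log estimated count between resampled sets of the reads of a library, which kallisto makes. It lay between 0.282 and 3.04 for the 9 pattern transcripts that passed the 1 TPM filter in DSS, beside a median of 0.0291 over 12053 transcripts, and between 0.994 and 3.21 for 8 genes in water, beside 0.0811. All of these were above the median. The authors give no such value for *Dus2* and *Fam171a1* in water. These variances are over the same mice that chose the genes, and transcripts near 0 in some mice are among those chosen, so this is a description only. Over all DSS mice, the authors' mean log count was equivalent to 16.7 estimated reads for *Tra2a*, and to 112 and 150 for *Alg9* and *Ncoa5*. The *Tra2a* value includes the controls near 0, so it is not the count in the mice labelled knockout.

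Genes related to the 10 by family, name or a shared process showed no call. Of 74 such genes in 10 lists, 64 genes with 71 transcripts were tested in DSS and 63 with 69 transcripts in water. limma called 0 of them in either direction. The unadjusted p was under 0.05 for 1 transcript in DSS (*Srsf5*), 1.41% of those tested beside 3.27% of all transcripts, and for 4 in water (*Srsf6*, *Alg8*, *Dpagt1* and *Ing4*), 5.80% beside 4.98%. These shares were near or below the background, and nothing is read from them. Among the splicing activators related to *Tra2a*, 9 of 14 transcripts were above 0 in DSS (median difference 0.14, beside 0.02 for all transcripts) and 3 of 13 in water (median −0.10, beside −0.0042). Among the enzymes that assemble the lipid-linked oligosaccharide with *Alg9*, 10 of 15 were above 0 in DSS (median 0.11) and 7 of 15 in water (median −0.01). The other lists had medians between −0.23 and 0.18 in DSS and between −0.25 and 0.18 in water. The FAM171 family had no member with a mean of 1 TPM.

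Closely related genes were also looked at singly, and limma called none of them. They are paralogs, or for *Ncoa5* a gene that shares its name, and none was chosen for *Alg9*, *Tesc* or *Cep250*. *Tra2b*, the other Tra2 splicing activator, had 41.5 ± 16.0 TPM (SD, n = 3) in DSS controls and 44.9 ± 5.91 (n = 4) in DSS mice labelled knockout, and 25.3 ± 1.51 (n = 4) and 22.7 ± 2.30 (n = 5) in water. *Dus1l*, another tRNA dihydrouridine synthase, had 10.4 ± 1.47 TPM in water controls and 9.06 ± 5.78 in water mice labelled knockout. *Brd1* and *Brpf3*, which can take the place of *Brpf1* in acetyltransferase complexes, had 11.5 ± 0.265 and 7.70 ± 2.46 TPM in water controls and 11.5 ± 0.501 and 8.37 ± 2.76 TPM in water mice labelled knockout. *Mier3*, *Cyb5r3* and the abundant *Ncoa6* transcript had differences of −0.32, 0.10 and 0.06 in DSS and −0.21, −0.27 and −0.03 in water. *Fam171b* was under 1 TPM in every mouse. Across these genes, where tested, the limma adjusted p was at least 0.898 in water and 0.999 in DSS.

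Of the transcripts outside the 10 genes that met the on-off definition, those with the largest differences did not meet it in the other treatment. *Prpsap2* and *Gtf2e2* were present only in the DSS mice labelled knockout, and *Erlin1* and *Fbf1* only in the DSS controls. In water, each of these 4 spanned values under 1 TPM and at 2 TPM or more in both genotypes. *Polr3c*, present only in the water controls (4.81 to 16.8 TPM), had 2.51 to 4.64 TPM in DSS controls and 2.25 to 5.07 TPM in DSS mice labelled knockout, as *Dus2* was present in both. *Sbno1*, present only in the water mice labelled knockout, was at 3.99 TPM or more in all DSS mice. *Ighv2-6-8*, an immunoglobulin variable gene of B cells and not of epithelium, was at 2.59 to 125 TPM in the water mice labelled knockout and listed at 0 in all other mice. *Erlin1* in DSS and *Polr3c* in water were the other 2 transcripts that limma called.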

How the data were processed

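RNA of sorted EpCAM+ cells of 16 mice was analysed. The authors made stranded polyA libraries and quantified single reads with kallisto and tested genotype with sleuth; the submitters' notes name mm10, and the transcript release is not given in the sources used here. The authors deposited TPM per transcript for APPRIS principal isoforms, a table for each treatment (28988 transcripts, 385 repeated lines dropped, summed TPM of 487469 to 861109 per mouse), so depth per library is unknown. The tables also hold the authors' mean natural log of estimated counts and the variance of that log between resampled read sets, a score, used here as pooled values, and their p-values, q-values and log2 ratios, which were not used. The labels give a lower DSS concentration than the paper.

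Within each table, limma 3.58.1 (R 4.3.3) was fitted with a variance trend to log2(TPM + 1) of transcripts with a mean of at least 1 TPM, at a Benjamini-Hochberg adjusted p under 0.05, tested on simulated data. The 95% intervals are from this fit. For each gene, the treatment with the larger difference was described and the other tested by exact two-sided permutation (scipy 1.17.1). Words of 31 bases were compared over all GENCODE M21 transcripts, in which 96.0% of the listed identifiers had the same version. The genes, lists and definitions were chosen with earlier results of these data known. The text names the 10 genes, *Tnfrsf1b*, closely related genes, called members of related lists, and up to 3 on-off transcripts per treatment and direction. The 5 list members with an unadjusted p under 0.05 were named after their values were seen. Alternatives were other pseudocounts, filters and scalings, cage, a replicate block, gene sums and leaving out each mouse. Tables and plots were made in Python 3.11.15 (pandas 2.3.3, numpy 2.4.6, matplotlib 3.10.9).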

Additional observations from a re-analysis of the deposited data

Results flagged for a closer look

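Over the groups of 4 or 5 mice, 30 sets of values of a listed transcript and group were examined. In these, 7 values stood apart from the rest of their group by Dixon's test at 95%. Chance gives this in about 1 in 20 groups of normal values. Transcripts chosen for values near 0 in some mice do not have such values, so the 7 are not read against that rate. In the water controls, replicate 1 had 0.956 TPM of *Tesc* where the other 3 were listed at 0, replicate 2 had 0.00234 TPM of *Cep250* where the others had 1.21 to 1.43, and replicate 3 had 6.96 TPM of *Fam171a1* where the others had at most 0.0452. In the water mice labelled knockout, replicate 1 had 7.21 TPM of *Fam171a1* where the others had at most 0.0196, and replicate 5 had 6.80 TPM of *Alg9* where the others had 0.402 to 1.51. In the DSS mice labelled knockout, replicate 1 had 3.20 TPM of *Fam171a1* where the others had at most 0.0441, and replicate 2 had 6.53 TPM of *Brpf1* where the others had 1.57 to 2.24. The 7 values came from 7 mice, and *Fam171a1* gave 3 of them. The DSS controls, a group of 3, were not tested.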

How the results depend on the processing

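The differences that chose the genes have a direction set by that choice, so their sign under other settings is no sign of stability and is not counted. The count of calls moved. In DSS, limma called 2 transcripts, and 0 with a pseudocount of 0.1, no filter on low TPM, a filter at 5 TPM or cage as a covariate (unadjusted p under 0.05 for 209 to 775), 1 with gene sums, and 0 to 9 with a mouse left out. In water it called 2, and 0 when transcripts under 5 TPM were left out (362 with an unadjusted p under 0.05), 1 with median-of-ratios rescaling, equal totals, cage or gene sums, and 1 to 7 with a mouse left out. The *Tra2a* call was kept in 5 of 15 alternatives (adjusted p from 0.0037 to 0.79), and was lost without DSS control replicate 2 (0.179) or any 1 of the 4 DSS mice labelled knockout (0.0868 to 0.111). The *Dus2* call was kept in 14 of 16 (0.000625 to 0.654), and was lost without water control replicate 3 (0.0531). Gene sums are outside these counts. Their limma adjusted p was 0.0101 for *Tra2a* in DSS and 0.00132 for *Dus2* in water. *Tesc* passed with quantile normalization (0.0492). The count of on-off transcripts in DSS was 8, 13 with under 0.5 and at least 1 TPM, 4 with under 0.1 and at least 2 TPM, and 16 to 47 with a mouse left out, since fewer mice have to meet it; in water it was 4, and 4 to 12 with a mouse left out. In the other treatment, where differences were small, directions turned. With equal totals the water differences of *Alg9*, *Ncoa5* and *Cep250* became −0.028, −0.040 and −0.063, and with cage as a covariate those of *Cep250* in water and *Brpf1* in DSS became −0.0028 and −0.050. With a mouse left out the DSS differences ranged from −0.076 to 0.77 for *Mier1* ENSMUST00000030247, −0.64 to 0.13 for ENSMUST00000106858 and −0.83 to 0.69 for *Brpf1*. The water differences ranged from −0.25 to 1.30 for *Tra2a*, −0.30 to 0.32 for *Alg9*, −0.041 to 0.46 for *Ncoa5*, −0.29 to 0.26 for *Cep250* and −0.40 to 0.0030 for *Fam171a1*. Permutation of TPM kept 0 of 9 tests under 0.05, a level that the tests in DSS could not reach. This permutation also turned the sign for *Brpf1* (p = 0.686). The causes were not tested.

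The replicate numbers are those of different mice and do not pair them: deviations of same-numbered mice correlated at −0.15, 0.03 and −0.13 in DSS and at 0.04, −0.03, 0.07 and 0.05 in water. With the replicate number as a block, limma called 0 transcripts in DSS and 0 in water (298 and 665 with an unadjusted p under 0.05). In that fit the mouse without a partner, knockout replicate 4 in DSS and 5 in water, adds nothing to the difference, and the sign turned for ENSMUST00000106858 of *Mier1* in DSS (0.13) and for *Alg9* (−0.30), *Cep250* (−0.023) and *Fam171a1* (0.0030) in water. The number of mice limits precision, and read depth is unknown from TPM.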
